A study of Mus musculus with 12 samples.

Results

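The transcription factor genes of limb identity and of the T-box family were followed in 12 RNA libraries of mouse embryonic fibroblasts (MEFs), connective tissue cells grown from embryos. The genes are the hindlimb factors Pitx1 and Tbx4, the forelimb factor Tbx5, the T-box genes Tbx1, Tbx2, Tbx3, Tbx15 and Tbx18, and the homeobox genes Shox2 and Prrx1. They were chosen by name, with earlier results of these data known, and all 10 were found among the 37991 gene identifiers of the count tables.

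The libraries form 4 groups of 3. Cells labelled DKO come from Gadd45a-/-;Ing1-/- embryos, cells labelled Ing1 KO from embryos that lack Ing1, cells labelled Gadd45a KO from embryos that lack Gadd45a, and WT cells from wild-type embryos. All share the strain C57BL/6N, male sex, embryonic day E15.5, 4 passages in culture and harvest at 80% confluency. Ing1 codes for a chromatin protein that binds a methylated histone tail, and Gadd45a for a stress-response protein with a role in DNA demethylation. The labels say neither which region of the embryo was taken nor whether each library stands for an embryo of its own, so p-values measure the spread between libraries.

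In the early limb field, Tbx5 starts the forelimb bud, while Pitx1 starts hindlimb identity and acts upstream of Tbx4. Fibroblasts kept in culture retain part of this positional code, together with the Hox code of the body axis. Prrx1 is a homeobox factor of limb and craniofacial mesenchyme, Tbx15 and Tbx18 pattern the shoulder girdle, dermis and skeleton, and Tbx2 and Tbx3 are repressors that act in the limb margins and other organs.

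The libraries held 31493168 to 42852059 gene counts, and levels are given as CPM, counts scaled to the size of the library. Ing1 was at 1.29, 0.916 and 1.14 CPM in the cells labelled DKO and at 1.01, 1.23 and 1.42 CPM in Ing1 KO, against 52.1, 50.4 and 54.4 CPM in WT. Gadd45a was at 132, 120.0 and 127 CPM in the cells labelled DKO and at 75.9, 118 and 106 CPM in cells labelled Gadd45a KO, against 20.9, 21.1 and 21.3 CPM in WT. Gadd45a RNA was thus higher in the libraries labelled as lacking it (4.74-fold in those labelled Gadd45a KO and 5.99-fold in those labelled DKO, against WT). The sources used here do not give the deleted part of the gene, so this measurement does not check those labels. The groups are called by their labels throughout. The summed level of 10 fibroblast markers ran from 58800 to 72000 CPM over the 12 libraries, but single markers moved. In Ing1 KO against WT, 3 of the 10 were called higher and 4 lower, where 12.1% and 11.4% of all genes tested were. Among these markers were the matrix gene Dcn (2.95-fold lower) and the receptor gene Pdgfra (1.74-fold lower). Against WT, the cells labelled DKO had 0 called higher and 2 lower, where 15.6% and 10.3% of all genes tested were. The 2 markers were Dcn (2.40-fold) and Pdgfrb (1.21-fold). The part of these markers in the values below was not tested. The summed level of 10 macrophage markers was 988 to 1240 CPM in the cells labelled DKO, 159 to 295 CPM in Ing1 KO, 68.1 to 260.0 CPM in the group labelled Gadd45a KO and 123 to 214 CPM in WT. In bulk RNA, fewer cells of a type and less RNA per cell cannot be told apart.

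Levels of different genes were compared per kilobase of exon, in CPM per kb, using the merged exon length of a gene. Within each of the 4 groups the order began with Prrx1, Tbx15, Tbx18 and Tbx3. Prrx1 averaged 64.2 CPM per kb in the cells labelled DKO, 65.3 in Ing1 KO, 69.6 in those labelled Gadd45a KO and 69.9 in WT. Tbx15 averaged 42.1 CPM per kb in the cells labelled DKO, 40.1 in Ing1 KO, 50.5 in those labelled Gadd45a KO and 53.6 in WT. Tbx18 averaged 4.25 to 5.36 and Tbx3 2.89 to 3.27 CPM per kb over the groups, and the libraries of these first 4 genes did not overlap with those of the next gene in the order. Below them, neighbours mostly overlapped. In WT, Tbx5, Tbx4, Tbx1, Pitx1 and Tbx2 followed at 1.22, 0.991, 0.759, 0.612 and 0.421 CPM per kb, each overlapping with the next. In Ing1 KO, Pitx1 at 2.45 and Tbx4 at 1.94 CPM per kb stood before Tbx5 at 1.52 CPM per kb, again with overlap between neighbours. Tbx5 stood apart from the gene that followed it in Ing1 KO, and also in the cells labelled DKO and in those labelled Gadd45a KO, at 1.76 and 1.55 CPM per kb.

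**Figure D1:**
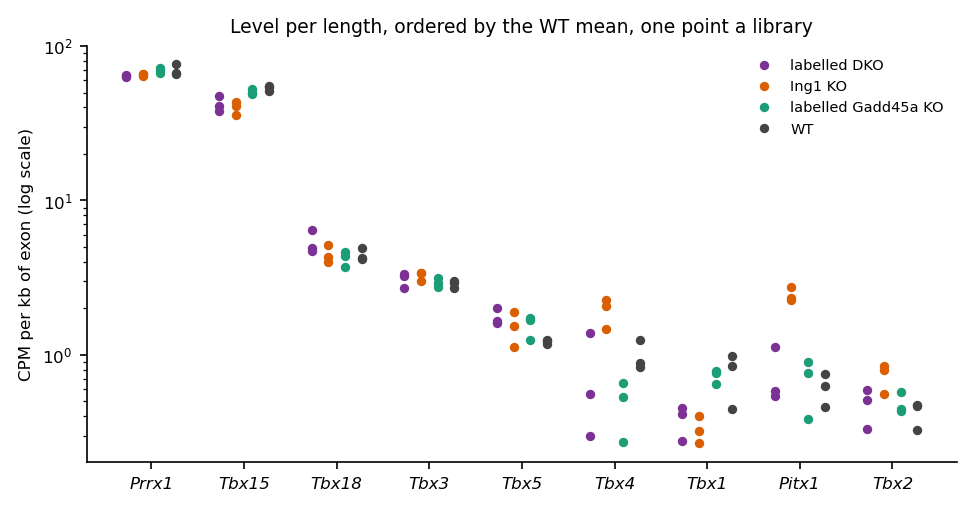
Level of each gene in CPM per kb of exon on a log scale, with one point for each library and colours for the 4 groups; genes are ordered by the WT mean, and Shox2, at 0, is not drawn. Prrx1 and Tbx15 lie above 30 CPM per kb in every library, while Tbx5, Tbx4, Tbx1, Pitx1 and Tbx2 lie below 3 CPM per kb.

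Shox2, a homeobox gene of the proximal limb skeleton, had a count of 0 in all 12 libraries. A count of 0 allows up to 3 counts, which is 0.0953 CPM in the smallest library and 0.0066 CPM over all 454716517 gene counts (counting error only). Rsrc1, a splicing-related gene that overlaps Shox2 on the opposite strand with 153 shared exon bases, was at 58.7 to 71.4 CPM. Shox2 did not pass the filter on low counts, so 9 of the 10 genes were tested.

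Pitx1, a paired-type homeobox gene on chromosome 13, had the largest change of the 9 tested genes in Ing1 KO against WT. It was at 7.31, 6.21 and 6.02 CPM in Ing1 KO, against 1.66, 1.23 and 1.99 CPM in WT. Every Ing1 KO library lay above every WT library. Its rise was 4.02-fold (log2 fold change 2.01 ± 0.32 SE, edgeR quasi-likelihood test, Benjamini-Hochberg adjusted p = 0.00139). The cells labelled DKO had 1.44, 1.55 and 3.00 CPM, with replicate 3 the highest, and overlapped with WT (log2 fold change 0.31 ± 0.34, adjusted p = 0.548). Pitx1 was 3.24-fold lower in the cells labelled DKO than in Ing1 KO (log2 fold change -1.69 ± 0.31, adjusted p = 0.00276). It was at 2.40, 2.02 and 1.02 CPM in the cells labelled Gadd45a KO, whose range includes that of WT (log2 fold change 0.15 ± 0.34, adjusted p = 0.924). The counts behind these values were 44 to 283 per library. Exons of Pitx1 share bases with 2 non-coding genes that are not listed in the count tables, Gm47071 on the opposite strand and Gm28760 on the same strand.

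The interaction asks whether the change in the cells labelled DKO differs from the sum of the changes in both single groups. For Pitx1 it was -1.85 ± 0.46 on the log2 scale (edgeR, adjusted p = 0.0207). The call was lost without WT replicate 2 (-1.68, adjusted p = 0.0597) and without the library labelled DKO replicate 2 (-1.70, adjusted p = 0.0523). Macrophage markers moved in the same interaction, with 5 of 10 called higher by edgeR, where 17.8% of all genes were called. DESeq2 called 10 of 10, and 10 of 10 had an unadjusted edgeR p under 0.05. The part of these markers in the Pitx1 value was not tested.

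Tbx4, the T-box gene of the hindlimb on chromosome 11, was at 7.75, 7.03 and 4.99 CPM in Ing1 KO, against 2.86, 3.00 and 4.24 CPM in WT. The groups did not overlap, but the difference did not pass the test over all genes (log2 fold change 0.97 ± 0.46, edgeR adjusted p = 0.159). A fit of these 6 libraries alone did call it (adjusted p = 0.0165). The cells labelled DKO had 1.90, 1.01 and 4.72 CPM, so that replicate 3 lay above all WT libraries and both other replicates below them. Set against Ing1 KO, the cells labelled DKO had a log2 fold change of -1.35 ± 0.47 (adjusted p = 0.0628). DESeq2 called this difference (-1.38, adjusted p = 0.0409), and so did edgeR without the library labelled DKO replicate 3 (-2.17, adjusted p = 0.0044). The cells labelled Gadd45a KO had 1.82, 2.25 and 0.928 CPM, all below the lowest WT library, with a log2 fold change of -1.02 ± 0.50 (adjusted p = 0.599). The interaction for Tbx4 was -0.33 ± 0.69 (adjusted p = 0.78).

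Tbx5, the forelimb gene on chromosome 5, varied less. It was at 7.71, 9.42 and 7.51 CPM in the cells labelled DKO, at 7.21, 5.25 and 8.95 CPM in Ing1 KO and at 7.89, 5.78 and 8.09 CPM in cells labelled Gadd45a KO, against 5.50, 5.80 and 5.74 CPM in WT. The cells labelled DKO lay above WT without overlap, and the other 2 groups overlapped with WT. Tbx5 was called 1.44-fold higher in the cells labelled DKO than in WT (log2 fold change 0.53 ± 0.18, edgeR adjusted p = 0.0477). This call was lost with another normalisation (adjusted p = 0.05), with no filter on low counts (0.0635) and without any one of the 6 libraries (0.0602 to 0.164). Its log2 fold change was 0.33 ± 0.18 in Ing1 KO against WT (adjusted p = 0.211) and 0.35 ± 0.18 in the cells labelled Gadd45a KO against WT (adjusted p = 0.601).

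**Figure D2:**
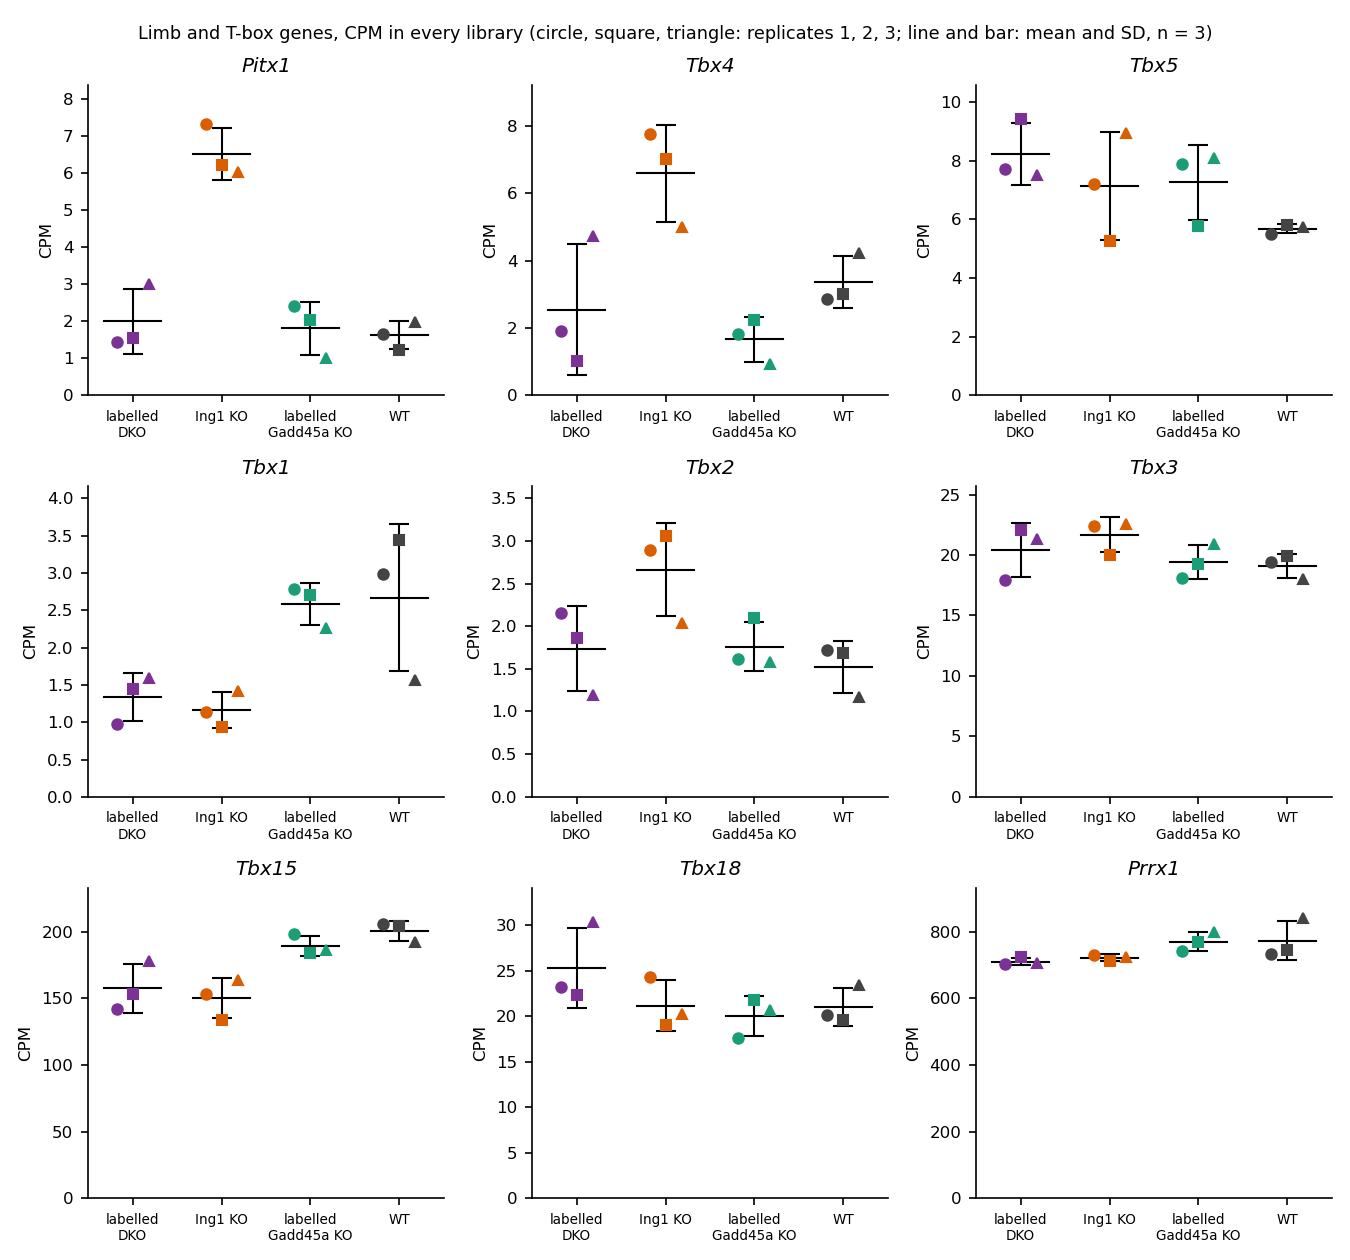
CPM of the 9 genes with counts in every library, with the groups labelled DKO, Ing1 KO, Gadd45a KO and WT from left to right and the mean and SD (n = 3) as lines and bars. Pitx1 stands at 6.02 to 7.31 CPM in Ing1 KO, above all other libraries. In the cells labelled DKO, replicate 3 is the highest of its group for Pitx1 (3.00 CPM) and Tbx4 (4.72 CPM), and also for Tbx1, Tbx15 and Tbx18.

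Set against Tbx5 in the same library, both hindlimb genes had their highest mean ratio in Ing1 KO. The ratios are of CPM and not per length, so they are read between groups and not as the level of 1 gene against another. The log2 ratio of Pitx1 CPM to Tbx5 CPM was -2.38, -2.56 and -1.31 in the cells labelled DKO, 0.02, 0.24 and -0.57 in Ing1 KO, and -1.70, -1.49 and -2.92 in those labelled Gadd45a KO, against -1.70, -2.19 and -1.51 in WT. Each Ing1 KO library lay above every other library in this ratio. The log2 ratio of Tbx4 to Tbx5 averaged -1.94 ± 1.25 in the cells labelled DKO, -0.10 ± 0.65 in Ing1 KO and -2.16 ± 0.86 in those labelled Gadd45a KO, against -0.77 ± 0.29 in WT (SD, n = 3 each). Here Ing1 KO replicate 3, at -0.84, lay within the WT range of -0.94 to -0.43, and the library labelled DKO replicate 3, at -0.66, stood above the other 2 of its group. Both ratios are descriptions of levels that were tested gene by gene above.

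**Figure D3:**
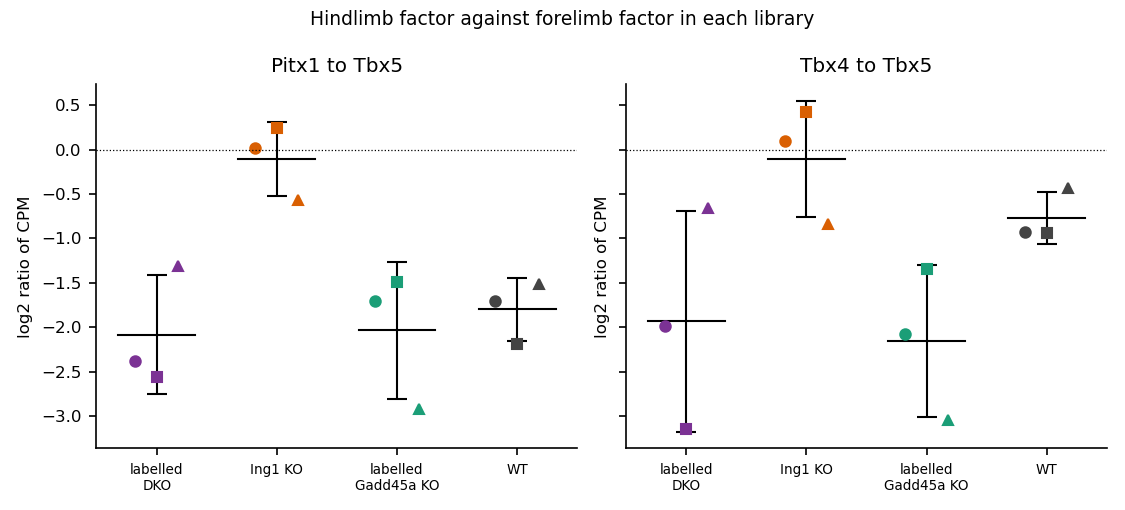
Log2 ratio of Pitx1 to Tbx5 (left) and of Tbx4 to Tbx5 (right), in CPM with a prior count of 2, for each library; lines and bars are the mean and SD (n = 3), and the dotted line marks equal CPM, which is not an equal level per length. The Ing1 KO libraries lie between -0.57 and 0.24 for Pitx1, above the other 9 libraries.

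Tbx1, a T-box gene of the pharyngeal arches on chromosome 16, was lower where Ing1 was lost. It was at 0.978, 1.45 and 1.59 CPM in the cells labelled DKO, at 1.14, 0.939 and 1.42 CPM in Ing1 KO and at 2.79, 2.70 and 2.27 CPM in cells labelled Gadd45a KO, against 2.99, 3.45 and 1.56 CPM in WT. WT replicate 3 was low and lay within the range of the cells labelled DKO. Tbx1 fell 2.30-fold in Ing1 KO against WT (log2 fold change -1.20 ± 0.27, edgeR adjusted p = 0.00753). It fell 1.99-fold in the cells labelled DKO against WT (-1.0 ± 0.28, adjusted p = 0.0169) and 1.92-fold against those labelled Gadd45a KO (-0.94 ± 0.27, adjusted p = 0.0221). The call against WT was lost without WT replicate 1 (adjusted p = 0.0619), WT replicate 2 (0.083) or the library labelled DKO replicate 1 (0.0791). The call against the cells labelled Gadd45a KO was lost without Gadd45a KO replicate 1 (adjusted p = 0.0665), Gadd45a KO replicate 2 (0.0526) or the library labelled DKO replicate 1 (0.0953). In the cells labelled DKO against Ing1 KO, Tbx1 had a log2 fold change of 0.20 ± 0.29 (adjusted p = 0.658).

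Because Gadd45a is tied to DNA methylation at CG sites, promoter sequences are shown with CG in capitals, for a gene called lower in both groups without Ing1 (Tbx1; Tbx15, also called lower in both, is not among the windows), for a hindlimb gene (Tbx4) and for the most abundant gene (Prrx1). The windows run from 250 bases before to 50 after an annotated start, on the strand of the gene, and come from RefSeq with build GRCm38.p6; 5 of the 10 genes had an entry. Methylation was not measured in these libraries, and its part in the values was not tested. Tbx1 was not called in the cells labelled Gadd45a KO against WT (log2 fold change -0.05 ± 0.26, edgeR adjusted p = 0.97).

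Tbx1, chr16:18588850-18589149, minus strand: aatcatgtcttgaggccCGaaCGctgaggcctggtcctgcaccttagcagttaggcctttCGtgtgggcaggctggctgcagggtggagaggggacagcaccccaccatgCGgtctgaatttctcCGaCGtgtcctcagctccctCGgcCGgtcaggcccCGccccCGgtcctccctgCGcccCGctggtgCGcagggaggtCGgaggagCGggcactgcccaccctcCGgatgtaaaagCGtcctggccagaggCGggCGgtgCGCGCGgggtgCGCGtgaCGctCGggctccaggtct
Tbx1, chr16:18590622-18590921, minus strand: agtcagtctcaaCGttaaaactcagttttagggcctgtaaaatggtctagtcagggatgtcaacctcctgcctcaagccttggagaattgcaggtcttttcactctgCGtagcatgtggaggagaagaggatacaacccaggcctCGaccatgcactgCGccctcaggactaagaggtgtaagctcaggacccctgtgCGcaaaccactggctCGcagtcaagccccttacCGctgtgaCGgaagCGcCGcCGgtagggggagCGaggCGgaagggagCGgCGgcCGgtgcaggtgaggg
Tbx4, chr11:85896515-85896814, plus strand: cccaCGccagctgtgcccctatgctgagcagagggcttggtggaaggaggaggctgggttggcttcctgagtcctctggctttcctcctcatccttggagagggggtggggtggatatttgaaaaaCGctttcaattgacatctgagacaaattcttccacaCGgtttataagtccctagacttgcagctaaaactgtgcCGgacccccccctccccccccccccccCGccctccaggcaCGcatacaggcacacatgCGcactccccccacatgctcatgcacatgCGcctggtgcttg
Prrx1, chr1:163313601-163313900, minus strand: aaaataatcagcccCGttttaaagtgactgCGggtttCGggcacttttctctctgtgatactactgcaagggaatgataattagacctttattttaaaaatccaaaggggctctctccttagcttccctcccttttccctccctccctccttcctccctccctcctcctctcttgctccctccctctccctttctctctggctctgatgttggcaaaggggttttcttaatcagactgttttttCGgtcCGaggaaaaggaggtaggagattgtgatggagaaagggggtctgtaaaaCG

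The Tbx1 windows held 26 and 16 CG, against a median of 7 over 32851 windows of the same length. Of all windows, 16.9% held at least 26 CG and 33.0% at least 16 CG. Tbx18 had 15, Shox2 11, Tbx4 8 and Prrx1 6 CG in their windows. The T-box letters TCACACCT, searched on both strands, were in 0 of the 6 windows of these genes and in 1.28% of all windows. The Pitx letters TAATCC, also on both strands, were in 0 of the 6 and in 7.06% of all. These matches describe letters in a window and no binding.

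Tbx2, a repressor gene on chromosome 11, was at 2.89, 3.06 and 2.04 CPM in Ing1 KO, against 1.72, 1.68 and 1.17 CPM in WT. The groups did not overlap, and Tbx2 was called 1.74-fold higher (0.80 ± 0.24 on the log2 scale, edgeR adjusted p = 0.0282). Without Ing1 KO replicate 1 the adjusted p was 0.0631, without Ing1 KO replicate 2 it was 0.115, without WT replicate 2 it was 0.0582 and without WT replicate 3 it was 0.109, so each of these libraries decides the call. The cells labelled DKO had 2.16, 1.86 and 1.19 CPM, overlapping with WT (log2 fold change 0.18 ± 0.25, adjusted p = 0.648) and with Ing1 KO (-0.62 ± 0.24, adjusted p = 0.0732). That last difference was called without Ing1 KO replicate 3 (-0.78, adjusted p = 0.0306). The cells labelled Gadd45a KO had 1.61, 2.09 and 1.58 CPM.

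Tbx15, a T-box gene of dermis and skeleton on chromosome 3, was the most abundant T-box gene. It was at 142, 153 and 178 CPM in the cells labelled DKO, at 153, 134 and 164 CPM in Ing1 KO and at 198, 184 and 186 CPM in cells labelled Gadd45a KO, against 206, 204 and 192 CPM in WT. No library without Ing1 reached a library with it. Tbx15 fell 1.34-fold in Ing1 KO against WT (log2 fold change -0.42 ± 0.08, edgeR adjusted p = 0.00439) and 1.27-fold in the cells labelled DKO against WT (-0.35 ± 0.08, adjusted p = 0.00921). Against the cells labelled Gadd45a KO, those labelled DKO were 1.20-fold lower (-0.26 ± 0.08, adjusted p = 0.0367). This last call was lost with no filter on low counts (adjusted p = 0.0682) and without Gadd45a KO replicate 1 (0.122), Gadd45a KO replicate 3 (0.0707) or the libraries labelled DKO replicate 1 (0.133) and replicate 2 (0.106).

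Tbx3, Tbx18 and Prrx1 were not called in any comparison. Tbx3, which lies on chromosome 5, averaged 20.4 ± 2.22 CPM in the cells labelled DKO, 21.7 ± 1.44 CPM in Ing1 KO and 19.5 ± 1.41 CPM in cells labelled Gadd45a KO, against 19.1 ± 0.97 CPM in WT (SD, n = 3 each). Its log2 fold change in Ing1 KO against WT was 0.18 ± 0.08 (edgeR adjusted p = 0.144). The antisense gene Tbx3os1, which shares 115 exon bases with Tbx3, did not exceed 0.481 CPM. Tbx18, on chromosome 9, averaged 25.3 ± 4.43 CPM in the cells labelled DKO, 21.1 ± 2.79 CPM in Ing1 KO and 20.0 ± 2.18 CPM in cells labelled Gadd45a KO, against 21.0 ± 2.06 CPM in WT (SD, n = 3 each). The library labelled DKO replicate 3, at 30.4 CPM, was the highest of the 12. Its overlapping transcript D030062O11Rik, on the opposite strand with 970 shared exon bases, is not listed in the count tables.

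Prrx1, on chromosome 1, was at 702, 723 and 707 CPM in the cells labelled DKO, at 731, 712 and 724 CPM in Ing1 KO and at 742, 770.0 and 800.0 CPM in cells labelled Gadd45a KO, against 734, 745 and 841 CPM in WT. All 6 libraries without Ing1 lay below all 6 with it. The size was small, with log2 fold changes of -0.12 ± 0.05 in the cells labelled DKO against WT (edgeR adjusted p = 0.106) and -0.10 ± 0.05 in Ing1 KO against WT (adjusted p = 0.191). Counts of 22884 to 34521 per library stood behind it.

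Counted over the 9 tested genes, 4 were called in Ing1 KO against WT, where 23.5% of all 15098 genes tested were called. Pitx1 and Tbx2 were higher, where 12.1% of all genes were, and Tbx1 and Tbx15 lower, where 11.4% were. Against WT, 3 of 9 were called in the cells labelled DKO, against 25.9% of all genes. Tbx5 was higher, where 15.6% of all genes were, and Tbx1 and Tbx15 lower, where 10.3% were. Set against those labelled Gadd45a KO, the cells labelled DKO had 2 of 9 called, both lower, against 26.4% of all genes called and 10.6% called lower. Set against Ing1 KO, they had 1 of 9, Pitx1, called lower, against 24.8% of all genes called and 9.88% called lower. In the interaction it was again Pitx1, 1 of 9, against 17.8% of all genes called and 7.4% called with a negative value. Against these backgrounds the counts of calls are no result about the 9 genes as a set. The median log2 fold change of the 9 genes ran from -0.11 in the interaction to 0.18 in Ing1 KO against WT, and that of all genes from -0.003 to 0.009. The comparisons with WT share the WT libraries, and those of the cells labelled DKO share the DKO libraries, so they are not independent.

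For the cells labelled Gadd45a KO against WT, 0 of 9 genes were called by edgeR, 0 had an unadjusted p under 0.05, and DESeq2 called 0. Only 0.00662% of all genes, which is Gadd45a itself, were called there. With the replicate number as a block in a fit of these 6 libraries, 13 genes were called, and 0 of the 9. Gadd45a itself was not called in that fit (log2 fold change 2.22, adjusted p = 0.0693).

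**Figure D4:**
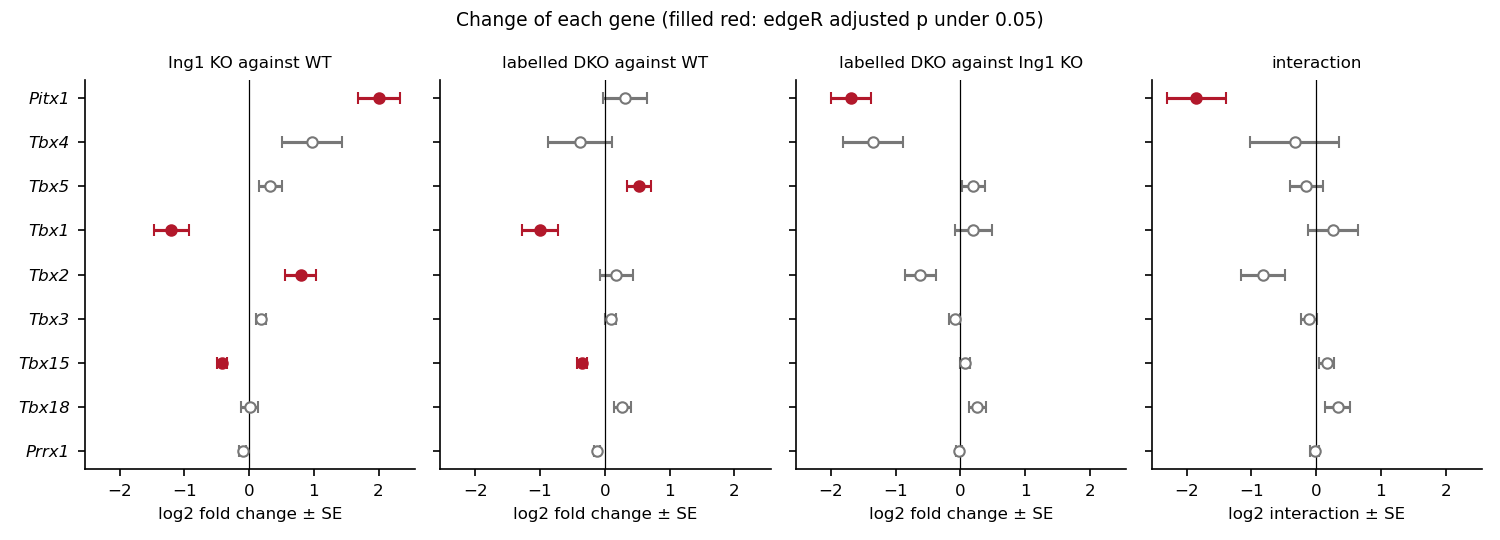
Log2 fold change with its SE (edgeR, 12 libraries in one fit) of the 9 tested genes in Ing1 KO against WT, the cells labelled DKO against WT, the cells labelled DKO against Ing1 KO, and the interaction; filled red points have an adjusted p under 0.05. Pitx1 is at 2.01, 0.31, -1.69 and -1.85 in the 4 panels, and Tbx1 and Tbx15 are left of 0 in both comparisons with WT.

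The macrophage markers had 10 of 10 members called higher in the cells labelled DKO against each other group. Of all genes, 15.6% were called higher in these cells against WT. Against the cells labelled Gadd45a KO and Ing1 KO, 26.4% and 24.8% were called in either direction. In Ing1 KO and in the cells labelled Gadd45a KO against WT, 0 of 10 markers were called, against 23.5% and 0.00662% of all genes. This was by edgeR, with 0 at an unadjusted p under 0.05 and 0 by DESeq2 in both. None of the 10 was at 0. Their part in the values of the cells labelled DKO was not tested. In Ing1 KO, 2 of 8 tested cartilage markers were called higher against WT, Acan (log2 fold change 3.62 ± 0.73, edgeR adjusted p = 0.00786) and Col2a1 (2.48 ± 0.63, adjusted p = 0.0223), both of cartilage matrix, where 12.1% of all genes were called higher. The summed level of the 10 cartilage markers was 381 to 601 CPM in Ing1 KO and 402 to 437 CPM in WT. Most of this sum was Col11a1, at 538, 511 and 363 CPM in Ing1 KO and 388, 412 and 427 CPM in WT, so it says little about Acan and Col2a1. Matn1, Chad and Snorc were under 0.5 CPM in every library. The part of the cartilage markers in the rise of Pitx1 was not tested.

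Of 10 further T-box genes listed, 9 were found and 2 were tested. Mga, a T-box protein that also dimerises with Max, averaged 91.9 ± 7.72 CPM in the cells labelled DKO, 93.4 ± 2.33 CPM in Ing1 KO and 98.9 ± 2.71 CPM in cells labelled Gadd45a KO, against 102 ± 6.16 CPM in WT (SD, n = 3 each). Tbx6, of the presomitic mesoderm, stayed between 0.301 and 1.23 CPM. Neither was called in any comparison by edgeR or DESeq2, while Mga had an unadjusted p of 0.041 in Ing1 KO against WT and 0.0202 in the cells labelled DKO against WT. Tbx10, Tbx19, Tbx20, Tbx21, Tbx22, Eomes and Tbr1 were under 0.5 CPM in every library.

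Hox genes carry the position along the body axis and the limb. Of 16 listed, 15 were tested. In Ing1 KO against WT 0 were called, against 23.5% of all genes (edgeR, with 1 at an unadjusted p under 0.05 and 1 by DESeq2). Nor were any called in the cells labelled Gadd45a KO against WT, with 0 of 15 (1 at an unadjusted p under 0.05, 0 by DESeq2). Hoxd9 was the 1 gene of 15 called in the cells labelled DKO against WT and against those labelled Gadd45a KO, and was lower in both. Of all genes, 25.9% and 26.4% were called there, and 10.3% and 10.6% called lower. Hoxd9 was at 1.52, 1.83 and 1.62 CPM in the cells labelled DKO, against 3.19, 3.53 and 1.99 CPM in WT (log2 fold change -0.81 ± 0.26, edgeR adjusted p = 0.032). The call against WT was lost without WT replicate 1 or 2 or any one library labelled DKO (adjusted p 0.0547 to 0.13) and with the replicate number as a block (0.0588). The call against the cells labelled Gadd45a KO (log2 fold change -0.84 ± 0.25, adjusted p = 0.0271) was lost without Gadd45a KO replicate 2 (0.0581) or replicate 3 (0.0733) or the library labelled DKO replicate 1 (0.0891) or replicate 3 (0.0709). Hoxc5 was the 1 gene of 15 called in the cells labelled DKO against Ing1 KO, where 24.8% of all genes were called and 9.88% called lower. It was lower in the cells labelled DKO, at 4.00, 4.52 and 4.69 CPM against 6.25, 7.08 and 5.23 CPM (-0.49 ± 0.13, edgeR adjusted p = 0.0149). It lost the call without Ing1 KO replicate 2 (adjusted p = 0.0799) or the library labelled DKO replicate 1 (0.0664). The median log2 fold change of the 15 genes was 0.07 in Ing1 KO against WT and -0.28 in the cells labelled DKO against WT.

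For several Hox genes the library labelled DKO replicate 3 stood above the other 2 of its group, and for others it did not. Hoxc10, of the lumbar region and hindlimb, was at 13.5, 11.5 and 18.9 CPM in the cells labelled DKO, at 15.6, 13.8 and 22.1 CPM in Ing1 KO and at 16.6, 20.0 and 15.9 CPM in cells labelled Gadd45a KO, against 19.4, 18.7 and 18.4 CPM in WT. Hoxc11, of the same region, was at 1.09, 1.14 and 2.68 CPM in the cells labelled DKO, against 3.08, 2.54 and 2.44 CPM in WT. Hoxd13, of the digits, was at 0.259, 0.348 and 1.33 CPM in the cells labelled DKO and at 0.879, 1.25 and 1.99 CPM in Ing1 KO, against 0.653, 1.12 and 0.150 CPM in WT. Hoxd10 and Hoxd11, which also act in the distal limb, did not follow this order, with 1.04, 0.885 and 1.03 CPM and 0.662, 0.790 and 0.716 CPM in the cells labelled DKO. Genes expressed further forward were not uniform either: replicate 3 was the highest of the cells labelled DKO for Hoxc8 (53.1, 59.4 and 62.6 CPM) and Hoxc9 (10.8, 12.5 and 14.1 CPM). The same library was the highest of its group for Pitx1 and Tbx4, and also for Tbx1 (1.59 CPM), Tbx15 (178 CPM) and Tbx18 (30.4 CPM). For Tbx5, Tbx2, Tbx3 and Prrx1 it was not the highest. Without this library the log2 fold change of Pitx1 in the cells labelled DKO against WT was -0.12. The genes of this paragraph were singled out after their values were seen.

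**Figure D5:**
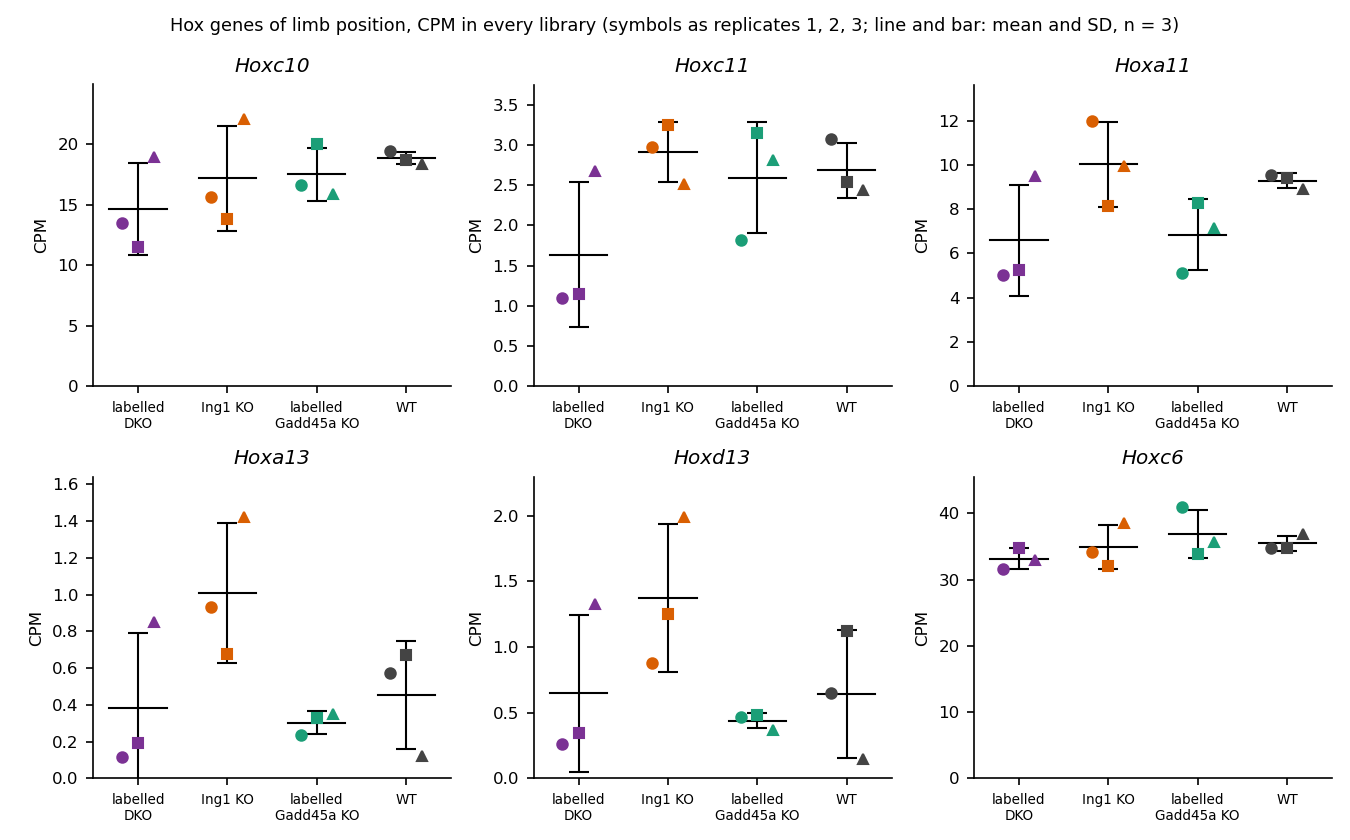
CPM of 6 Hox genes in every library, with groups, symbols, means and SD as in the plot of the limb genes. The library labelled DKO replicate 3 (triangle) is the highest of its group for Hoxc10 (18.9 CPM), Hoxc11 (2.68 CPM), Hoxa11 (9.50 CPM), Hoxa13 (0.849 CPM) and Hoxd13 (1.33 CPM), but not for Hoxc6 (33.0 CPM).

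The wider list of limb bud patterning and outgrowth genes held 39 genes, 29 of them tested. In Ing1 KO against WT, 7 were called higher and 1 lower, against 12.1% and 11.4% of all genes, with a median log2 fold change of 0.08 against -0.003 for all genes. Etv4, a target of FGF signalling, was at 16.0, 23.7 and 22.2 CPM in Ing1 KO, against 11.6, 8.96 and 11.1 CPM in WT (log2 fold change 0.97 ± 0.14, edgeR adjusted p = 0.000618). Msx2, a homeobox target of BMP signalling, was 2.12-fold higher (1.09 ± 0.21, adjusted p = 0.00339), and Etv5, another FGF target, 1.22-fold higher. Meis1, a proximal limb factor, was 1.17-fold lower. The cells labelled DKO had 6 called higher and 4 lower against WT, where 15.6% and 10.3% of all genes were, among them Etv5 (log2 fold change 0.42 ± 0.06, adjusted p = 0.000309). The Hox cofactor gene Pbx2 (0.22 ± 0.05) was called too, and so was Wnt5a, a signal of limb outgrowth (0.24 ± 0.06), whose call was lost without the library labelled DKO replicate 3 (0.19, adjusted p = 0.0531).

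Against Ing1 KO, the cells labelled DKO had 3 limb bud genes called higher and 7 lower, where 24.8% of all genes were called and 9.88% called lower. Msx2 was at 0.604, 0.885 and 1.06 CPM in the cells labelled DKO, against 2.38, 2.63 and 1.97 CPM in Ing1 KO (log2 fold change -1.44 ± 0.22, edgeR adjusted p = 0.000793). Grem1, a BMP antagonist of the limb bud, was at 109, 116 and 208 CPM in the cells labelled DKO, against 429, 359 and 298 CPM in Ing1 KO (-1.32 ± 0.29, adjusted p = 0.0113). Against the cells labelled Gadd45a KO, those labelled DKO had 5 called higher and 3 lower, where 26.4% of all genes were called. Between the cells labelled Gadd45a KO and WT, 0 of 29 were called (edgeR; 1 at an unadjusted p under 0.05, 0 by DESeq2). The ligands of the limb ridge and polarising region, Fgf8, Fgf4 and Shh, had 1, 1 and 2 counts over the 12 libraries.

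Of 20 mesenchymal homeobox, forkhead and bHLH factors, 14 were tested. In Ing1 KO against WT, 4 were called higher and 2 lower, against 12.1% and 11.4% of all genes. Foxc1, a forkhead factor of mesoderm, was at 13.6, 16.5 and 8.08 CPM in Ing1 KO, against 5.80, 4.15 and 5.56 CPM in WT (log2 fold change 1.30 ± 0.26, edgeR adjusted p = 0.00496). Its paralog Foxc2 was 1.43-fold higher, and Barx1 rose to 2.02, 1.81 and 0.672 CPM in Ing1 KO, against 0.245, 0.160 and 0.211 CPM in WT. Twist1, a bHLH factor of mesenchyme, fell in both groups without Ing1: it was at 37.4, 43.8 and 39.1 CPM in the cells labelled DKO and at 39.3, 46.1 and 44.3 CPM in Ing1 KO, against 67.7, 64.8 and 58.2 CPM in WT.

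Against WT, 0 of these factors were called higher and 5 lower in the cells labelled DKO, where 15.6% and 10.3% of all genes were, with a median log2 fold change of -0.32, against 0.008 for all genes. Prrx2, the paralog of Prrx1, was at 35.0, 30.2 and 35.4 CPM in the cells labelled DKO, against 53.9, 46.0 and 42.9 CPM in WT (log2 fold change -0.51 ± 0.11, edgeR adjusted p = 0.00555). Osr2 was 3.04-fold lower, a call lost without the library labelled DKO replicate 1 (adjusted p = 0.0502) and in a fit of the 6 libraries alone (0.061). Against Ing1 KO, 7 of the 14 were lower in the cells labelled DKO and 0 higher, against 9.88% of all genes lower, with Foxc1, Foxc2, Six2 and Barx1 first by adjusted p (log2 fold changes of -1.43, -0.55, -1.92 and -2.33). Against the cells labelled Gadd45a KO, 6 were lower and 0 higher, where 10.6% of all genes were lower. For the cells labelled Gadd45a KO against WT, 0 of 14 were called (edgeR; 0 at an unadjusted p under 0.05, 0 by DESeq2).

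Genes whose pattern over the 12 libraries was most like that of a limb gene were taken from 11656 genes with a symbol and a mean of at least 2 CPM, by the mean absolute difference of centred log2 CPM. For Pitx1, they were Krt7, Rbfox1 and Lipg, at 0.350, 0.351 and 0.353, where Pitx1 itself deviated by 0.757 from its mean. For Tbx4, they were Cdsn, Il1rl1 and Masp1, at 0.447, 0.464 and 0.467, beside an own deviation of 0.785. For Tbx5, Hoxb6, a gene of the thorax and forelimb level, was nearest at 0.081, followed by Gas7 at 0.113 and Astn2 at 0.122, with an own deviation of 0.254. For Prrx1, which deviated by 0.056, Hspa5, Pafah1b1 and Micu2 lay at 0.030 to 0.033. For Shox2, at 0 throughout, no pattern could be compared.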

How the data were processed

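Polyadenylated RNA from MEFs, with 12 libraries and 3 for each of 4 genotype labels, was prepared with the TruSeq v2 kit, a kind without strand marks, and sequenced as single reads of 51 cycles, per the labels' protocols. The authors deposited raw counts per gene, with no normalisation; per the submitters' processing notes, TopHat2 2.0.9, Bowtie2 2.1.0, HTSeq 0.5.4 and DESeq were used, with builds mm9 and NCBIM37. The sources used here do not give how overlapping genes and reads with several matches were counted, and counts of a gene and an opposite-strand neighbour cannot be told apart.

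Summary lines (23.89% to 24.91% of each table) were left out, and gene counts were 31493168 to 42852059 per library. Intervals and floors cover counting error only. Symbols, chromosomes and merged exon lengths came from a GENCODE annotation of GRCm38, another build than the authors' one, matched by gene identifier (32919 of 37991 had a symbol), so no gene coordinates are given; of 153 genes listed, 152 were found.

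Counts were tested with edgeR 4.0.16 (R 4.3.3; TMM, filterByExpr leaving 15098 genes, robust quasi-likelihood F test, two-sided) in one fit of 12 libraries with 4 groups and 8 residual degrees of freedom. A gene was called at a Benjamini-Hochberg adjusted p under 0.05 within a comparison. CPM were divided by TMM-scaled library sizes; log2 ratios and patterns used a prior count of 2. Alternatives were RLE normalisation, no filter, DESeq2 1.42.0, a fit of the compared groups alone, the replicate number as a block, each library left out and, for ratios, a prior count of 0.5; the block within the 6 libraries labelled Gadd45a KO and WT was added after the data were seen. Same-numbered libraries of those 2 groups deviated together (r = 0.336, 0.105 and 0.129). So did WT replicate 2 with Gadd45a KO replicate 3 (r = 0.112) and WT replicate 3 with Gadd45a KO replicate 2 (r = 0.132). The numbers therefore do not show which libraries form pairs, and the block is an alternative fit only. The procedure was tested on simulated data for the cells labelled DKO against WT only, with 200 genes changed. It recovered 61% of the genes changed 1.5-fold and 90% of those changed 3-fold, and 4.43% of its calls were false. Changes of 1.5-fold or less can thus be missed, and so can some larger ones, up to 3-fold in this simulation.

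The genes and lists were chosen with earlier results of these data known. Named genes are the 10 chosen, Ing1, Gadd45a, overlapping genes, up to 4 called genes with the smallest adjusted p for each list and comparison (otherwise the 2 most abundant), and the 3 nearest patterns; results on some examined genes are not reported here, and others are said to be chosen after their values were seen. Exact permutation of 3 against 3 libraries cannot give a two-sided p below 0.1 and was not run.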

Additional observations from a re-analysis of the deposited data

Results flagged for a closer look

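For 8 genes named here from the limb, T-box, mesenchymal and Hox lists, edgeR called the interaction (adjusted p under 0.05). Their change in the cells labelled DKO differed from the sum of the changes in the cells labelled Ing1 KO and Gadd45a KO. Among the limb and T-box genes this was Pitx1 at -1.85 on the log2 scale, which was 4.02-fold higher in Ing1 KO than in WT but not called in the cells labelled DKO against WT.

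Among the limb bud genes it was Msx2 at -1.47 and Etv4 at -0.82. Among the mesenchymal factors it was Foxc2 at -0.57, Foxc1 at -1.51, Prrx2 at -0.54 and Six2 at -1.87, and among the Hox genes Hoxc5 at -0.56. In the interaction, 1 of 9 limb and T-box genes, 3 of 29 limb bud genes (not all named here) and 4 of 14 mesenchymal factors were called. For the Hox genes it was 1 of 15, and for the further T-box genes 0 of 2. Of all genes, 17.8% were called and 7.4% called with a negative value. The 8 genes were named because they were called. All 8 values are negative, but called values of the cell type markers were not all so. Of the 10 fibroblast markers, 2 were called with a positive value, Pdgfra (0.86, edgeR adjusted p = 0.0172) and Dcn (0.72, 0.0456), and 2 with a negative value. Foxc1 lost the call without WT replicate 2 (-1.37, adjusted p = 0.0588). With a library left out, Prrx2 kept the call only without WT replicate 1, Ing1 KO replicate 3 or the library labelled DKO replicate 3, and Six2 only without WT replicate 1, Ing1 KO replicate 3 or the library labelled DKO replicate 2. Hoxc5 kept it only without Gadd45a KO replicate 2 or Ing1 KO replicate 3. Prrx2 and Six2 also lost it with no filter on low counts (adjusted p = 0.0693 and 0.0705), and Hoxc5 with the replicate number as a block (0.0641). The macrophage markers went the other way in the same interaction. Of 10, 5 were called higher by edgeR and 10 were called by DESeq2, with 10 at an unadjusted p under 0.05. Their part in the 8 negative values was not tested.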

How the results depend on the processing

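Under the settings run, Pitx1, Tbx1 and Tbx15 in Ing1 KO against WT, Tbx15 in the cells labelled DKO against WT and Pitx1 in the cells labelled DKO against Ing1 KO kept their direction and call. Most calls that were lost or gained stand beside the results, and the cause was not tested. Against the cells labelled Gadd45a KO, those labelled DKO lost the calls of Osr2 (adjusted p 0.0553 to 0.0822 in 5 settings), Pbx2 (0.052 to 0.0569 in 4) and Wnt5a (0.053 and 0.0573 in 2).

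In the cells labelled Gadd45a KO against WT, where 1 gene was called, DESeq2 called 27, a fit of the 6 libraries alone 0 (Gadd45a had an adjusted p of 0.0865 there), the block within them 13, and leaving out a library gave 1 to 13. Leaving out a library gave 1858 to 3548 genes called in Ing1 KO against WT, 2249 to 3676 in the cells labelled DKO against Ing1 KO and 1300 to 3285 in the interaction. Of the 9 limb and T-box genes, it gave 1 to 2 called in the cells labelled DKO against WT, 0 to 2 against those labelled Gadd45a KO (1 with no filter), 1 to 2 against Ing1 KO (2 with DESeq2) and 0 to 1 in the interaction.

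With the replicate number as a block over the 12 libraries, 2 of the 9 genes were called in the cells labelled DKO against Ing1 KO and 2 in the interaction; Tbx2 was gained in both (adjusted p = 0.0214 and 0.0378), and Tbx5 was lost in the cells labelled DKO against WT (0.0555). Outside the groups labelled Gadd45a KO and WT, same-numbered libraries did not all deviate together (r from -0.177 to 0.206). A shared number is read as a number only, in these groups and in the others.

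Signs turned only with a library left out, and only for differences that were not called and for ratios, which have no test. In Ing1 KO against WT, Tbx18 ran from -0.10 to 0.09. Between the cells labelled Gadd45a KO and WT, Pitx1 ran from -0.10 to 0.44, Tbx1 from -0.32 to 0.17, Tbx3 from -0.03 to 0.07 and Tbx18 from -0.14 to 0.01. Between the cells labelled DKO and WT, Pitx1 ran from -0.12 to 0.50 and Tbx2 from -0.01 to 0.39. Against those labelled Gadd45a KO, Pitx1 ran from -0.27 to 0.41, Tbx4 from -0.18 to 1.00 and Tbx2 from -0.22 to 0.19. Against Ing1 KO, Tbx15 ran from -0.03 to 0.14. In the interaction, Tbx4 ran from -1.15 to 0.03, Tbx5 from -0.33 to 0.05 and Prrx1 from -0.08 to 0.02. The ratios to Tbx5 in Ing1 KO ran from -0.27 to 0.13 for Pitx1 and from -0.37 to 0.26 for Tbx4. The interaction could not be run on part of the groups.

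Counts of Pitx1, Tbx4, Tbx1 and Tbx2 went as low as 44, 32, 34 and 39 per library, which limits their precision.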
